A study of Mus musculus with 2 samples.

Results

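Expression of 9 genes for proteases of the extracellular matrix, their receptor and their inhibitors was examined in single cells of a mouse pancreatic cancer line. The members were the plasminogen activators Plau and Plat, the receptor Plaur, the metalloproteases Mmp14, Mmp7 and Adamts1, and the inhibitors Timp1, Timp2 and Timp3. They were found by symbol among the 33696 features, each as 1 row. The cells were of the line KPCY 6419c5, from a pancreatic ductal adenocarcinoma of the KPCY mouse model, in which Cre under the Pdx1 promoter switches on the tumour-driving alleles and a yellow fluorescent reporter. All cells had been transfected with an adenine base editor built on the nuclease Cas12a, which changes A to G at guided sites and serves here to record lineage. Clones 76 and 84, each grown from 1 sorted cell, were mixed in equal numbers after 19 days of editing and loaded as 1 library. There was no unedited group and no replicate, and a further sample, of the clones numbered 1, 32, 33, 52 and 76, is not analysed here.

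Plasminogen activators cut plasminogen into plasmin, a serine protease that degrades fibrin and other matrix proteins and activates some metalloproteases. The receptor uPAR holds urokinase at the cell surface, so that plasmin is made there. Membrane-anchored and secreted metalloproteases cut collagens and proteoglycans, and the TIMP proteins block them. In pancreatic cancer these enzymes are known for their part in invasion and in remodelling the dense stroma, and much of their RNA comes from fibroblasts as well as from the cancer cells.

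Cells were divided by 11 genes that separate 2 expression groups in this pool. A cell was called an A cell with at least 2 unique molecular identifiers (UMIs, 1 for each captured RNA molecule) of Pde10a, Plcb1, Galnt18, Arhgap15 and Ceacam1 together, and at least 3 times as many as of the other list. It was called a B cell by the same rule with S100a7a, Rgs20, Hs6st2, Ccbe1, Ctse and Mal. No label ties A or B to clone 76 or 84. Of 21361 kept cells, 7816 (36.6%) were A cells and 8936 (41.8%) were B cells. The median was 4700 UMIs in A cells and 5440 in B cells, and the median mitochondrial share was 3.19% and 1.89%. Levels are given as CPM, the UMIs of a gene scaled to a common total. All 8 genes of the epithelial list had UMIs in both groups: Krt18 had 1083 CPM in A cells and 3019 CPM in B cells, and Krt8 had 919 and 1498 CPM, while Epcam had 31.8 and 3.165 CPM. Fibroblast markers summed to 2.19 CPM in A cells, led by Col3a1 and Pdgfra, and 1.02 CPM in B cells, led by Pdgfra and Col1a1. Of these markers, 3 of the 8 (Col1a2, Dcn and Lum) were at 0 in both groups. The immune list had 3.50 and 1.00 CPM, led by Coro1a and Cd68, and the acinar list 13.7 and 4.38 CPM, led by Prss2 and Cela1. The endothelial list had 33.5 and 8.57 CPM, nearly all from Egfl7, whereas Cdh5 had 0.298 and 0.606 CPM and Kdr and Emcn were at 0. The part of such cells in the results below was not tested.

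Each level below sums the UMIs of a group and carries an exact Poisson interval at 95%. UMIs are counted at the 3′ end with no correction for length, so levels are compared between cells and not between genes. Shares of cells carry exact Clopper-Pearson intervals, and folds the exact binomial interval of the UMIs' division between the groups. These intervals cover counting error only. With 1 library, cells are not replicates and no test between A and B cells was possible, so a gene is called apart when it has at least 10 CPM in either group and differs at least 2-fold. By that rule 17.5% of 8789 genes were apart, 7.2% with the higher level in B cells and 10.3% in A cells. Of the 9 members 7 reached 10 CPM, and 3 of these were apart. Timp1 was higher in B cells, and Adamts1 and Timp3 were higher in A cells. Adamts1 reached 10 CPM in A cells alone. The median log2 ratio of B over A cells was 0.46 over the 7 members and -0.17 over all 8789 genes. Centred on that shift, 53.5% of the genes apart were higher in B cells, against 41.2% before.

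**Figure D1:**
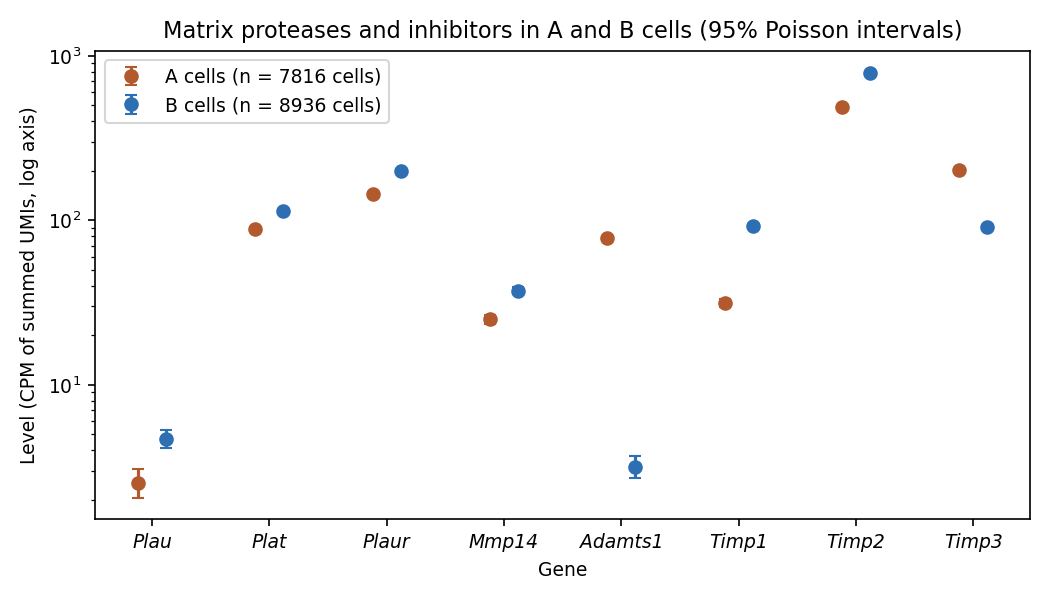
Level of 8 genes in A cells (brown) and B cells (blue), as CPM of summed UMIs on a log axis. Points are the level and bars the 95% Poisson interval; Mmp7 had 0 UMIs and is left out. Adamts1 and Timp3 lie higher in A cells, and the 6 other genes higher in B cells.

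**Figure D2:**
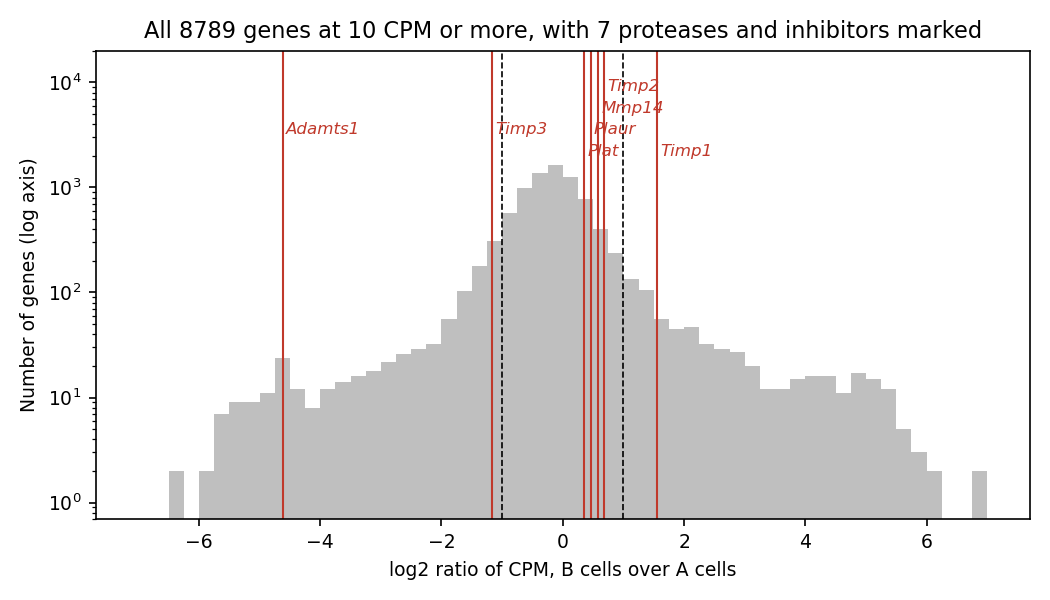
Distribution of the log2 ratio of CPM, B over A cells, for the 8789 genes that reach 10 CPM in A or B cells (grey, log axis; a ratio past 7 is drawn in the last bar). Red lines mark 7 proteases and inhibitors and dashed lines a 2-fold difference; Adamts1 (-4.62), Timp3 (-1.16) and Timp1 (1.56) lie outside the dashed lines.

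Plat, the gene of tissue-type plasminogen activator, and Plaur, the gene of the receptor for urokinase, were detected widely in both groups. Plat had 3570 UMIs in A cells, or 88.6 CPM (interval 85.8 to 91.6), and 5995 UMIs in B cells, or 114 CPM (111 to 117). Plaur had 145 CPM (141 to 149) in A cells and 199 CPM (195 to 203) in B cells. Both were somewhat higher in B cells, Plat by 1.28-fold (1.23 to 1.34) and Plaur by 1.37-fold (1.33 to 1.42), and neither reached 2-fold. Thinned to 3000 UMIs per cell, Plat was seen in 20.8% (19.9 to 21.8%) of A cells and 27.6% (26.7 to 28.6%) of B cells. Plaur was seen in 33.3% and 42.7%. Without thinning the shares were 31.2% and 43.5% for Plat and 47.0% and 63.8% for Plaur. As given with Adamts1 below, RNA of some genes high in 1 group appeared in the other at a few percent of its level. Whether free RNA added to the shares of Plat and Plaur was not tested.

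Plau, the gene of urokinase, was seen in few cells of either group. It had 102 UMIs in A cells, or 2.53 CPM (2.07 to 3.07), and 247 UMIs in B cells, or 4.68 CPM (4.12 to 5.30). Its UMIs came from 1.29% of A cells and 2.69% of B cells before thinning, and from 0.837% and 1.30% after. The ratio of B over A cells was 1.85 (1.46 to 2.35), at a level under the minimum for a call. Of the thinned B cells with a Plau UMI, 42.6% also had a Plaur UMI, against 42.7% of those without. In A cells these shares were 43.5% and 33.2%, the first from 27 cells with both.

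The sequence before the start of Plaur is shown for a heptamer, TGAGTCA, that binds AP-1, a transcription factor long tied to this gene and to metalloprotease genes. RefSeq promoter entries of build GRCm38.p6, whose coordinates are not those of the deposited counts (GRCm39), were found for 7 of the 9 members, and not for Plau and Plat. The 250 bases before each start were searched on both strands for TGAGTCA, for the GC box GGGCGG, for TATAAA and for the ETS core AGGAAG. The heptamer was found in 4.46% of 32851 promoter entries, and among the 7 matched members in Plaur and Mmp7. In Plaur it begins 69 bases before the start and lies on the reverse strand, within chr7:24462394-24462440 (plus strand), in capitals here.
Plaur: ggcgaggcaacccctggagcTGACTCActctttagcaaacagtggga
The GC box was present in 32.7% of all entries, TATAAA in 12.4% and the ETS core in 29.5%. Plaur held 3 GC boxes, of which neighbours lie end to end or share a base, and 1 ETS core. A match describes the letters only.

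Mmp14 encodes a membrane-anchored collagenase that also activates pro-Mmp2. It was detected in both groups at a low level, with 25.0 CPM (23.5 to 26.6) in A cells and 37.4 CPM (35.8 to 39.1) in B cells, 1.499-fold (1.39 to 1.62) higher in B cells. Thinned, 7.41% of A cells and 10.6% of B cells had a UMI. Nearly all of these had a single UMI, and the highest count in a thinned cell was 3. Its window held 2 GC boxes and 1 ETS core.

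Mmp7 encodes matrilysin, a small secreted metalloprotease that is well known from ductal lesions of the pancreas. It had 0 UMIs in A cells, in B cells and in all 22178 barcodes. A count of 0, taken to allow up to 3 UMIs, allows a level of up to 0.0745 CPM in A cells and 0.0568 CPM in B cells, and a share of up to 0.0384% and 0.0336% of cells with a UMI. The line therefore gave no detectable Mmp7 at this depth, in either group. Its promoter is shown beside that of Plaur because it holds the same heptamer, beginning 63 bases before the start on the forward strand, within chr9:7692007-7692053 (plus strand).
Mmp7: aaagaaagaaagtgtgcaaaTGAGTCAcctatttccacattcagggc
Of its 2 promoter entries this is the one with the heptamer, and it also held TATAAA 26 bases before the start and once further upstream. Nothing about AP-1 in these cells follows from the match.

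Adamts1 differed most among the 9 members. It encodes a secreted metalloprotease with thrombospondin repeats that cuts the proteoglycans aggrecan and versican. A cells held 3146 UMIs, or 78.1 CPM (75.4 to 80.9), and B cells 168 UMIs, or 3.18 CPM (2.72 to 3.70), so that the level was 24.5-fold (21.0 to 28.8) higher in A cells. Of all 8789 genes, 1.23% had a ratio further from 1. Thinned, 18.8% (17.9 to 19.7%) of A cells and 0.725% (0.559 to 0.925%) of B cells had a UMI, and 1.11% of A cells but no B cell had 3 or more.

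Adamts1 in B cells, as a share of its level in A cells, lay above 5 genes picked for the smallest such share. Among genes outside the 11 with at least 100 CPM in A cells, the 5 with the smallest remainder (Gm5886, Slc1a3, Grem1, Gpr15lg and S100g) stood in B cells at 2.39 to 3.96% of their level in A cells. Adamts1 stood at 4.08%. With at least 4 UMIs of the own list and 10 times those of the other, the 5 genes stood at 1.002 to 2.33% and Adamts1 at 2.99%. How much of the Adamts1 RNA in B cells was free RNA or came from A cells in the same droplet was not tested. Timp3, at 44.7%, and Timp1, which stood in A cells at 34.0% of its level in B cells, were far above such remainders. For Timp1 the range to compare, from Lamb3, Dsp, Krt7, Anxa10 and Smpd3, was 2.80 to 5.06%.

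The 3 TIMP genes did not move together. Timp2, whose protein inhibits most metalloproteases and also takes part in the activation of pro-Mmp2 by Mmp14, had 491 CPM (485 to 498) in A cells and 790.2 CPM (783 to 798) in B cells, 1.61-fold (1.58 to 1.64) higher in B cells. Thinned, it was seen in 74.8% of A cells and 88.4% of B cells, and 3 or more UMIs were seen in 18.6% and 40.3%. Timp1, a soluble inhibitor, had 31.4 CPM (29.7 to 33.2) in A cells and 92.6 CPM (90.0 to 95.2) in B cells, 2.94-fold (2.77 to 3.13) higher in B cells. Thinned, 8.71% (8.08 to 9.37%) of A cells and 23.2% (22.3 to 24.1%) of B cells had a Timp1 UMI.

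Timp3, whose protein binds to the matrix and also inhibits ADAM17 and aggrecan-cutting ADAMTS enzymes, went the other way. It had 203 CPM (199 to 208) in A cells and 90.8 CPM (88.2 to 93.4) in B cells, 2.24-fold (2.16 to 2.32) higher in A cells. A Timp3 UMI was seen in 41.1% (39.96 to 42.2%) of thinned A cells and 21.3% (20.5 to 22.2%) of thinned B cells. Of all TIMP UMIs in A cells, 67.7% were Timp2, 28.0% Timp3 and 4.33% Timp1. In B cells the shares were 81.2%, 9.33% and 9.51%, so the share of Timp3 was lower and that of Timp1 higher in B cells. The Timp3 difference was close to the 2-fold limit and depended on the scaling: centred on the median of all genes, the log2 ratio was -0.99. Timp1 lies inside Syn1 and Timp3 inside Syn3, both on the opposite strand, and Timp2 overlaps Cep295nl on the same strand. Whether the counting used strand is not given in the sources used here, so UMIs of such partners could be exchanged. Syn1 had 1.738 and 12.03 CPM, Syn3 3.48 and 9.53 CPM, and Cep295nl 2.16 and 3.22 CPM in A and B cells.

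**Figure D3:**
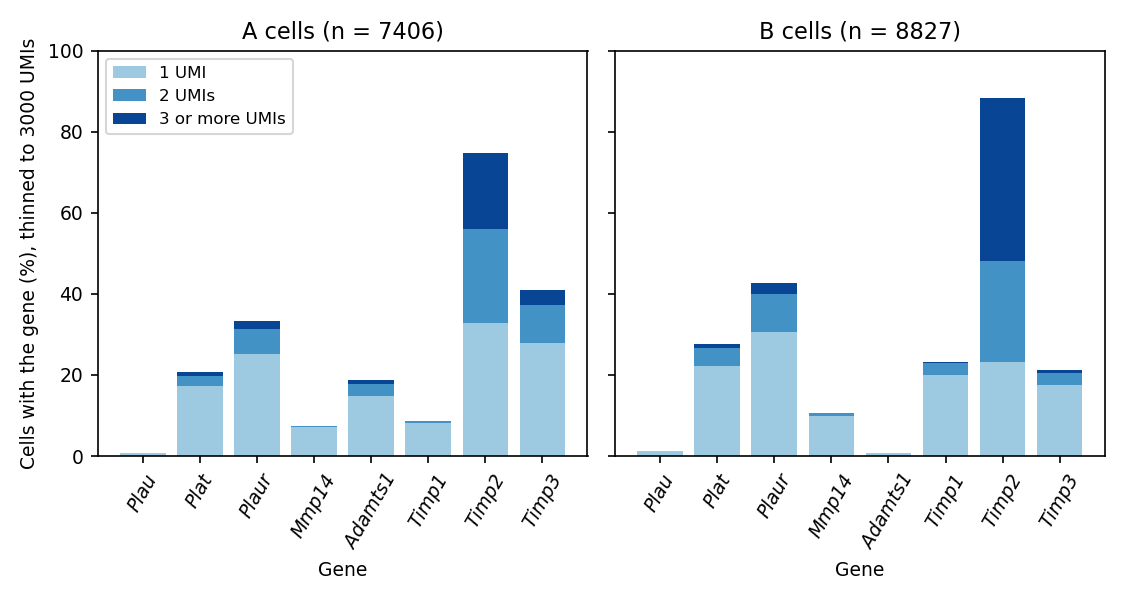
Share of A cells (left) and B cells (right) with 1, 2 or at least 3 UMIs of each gene after thinning every cell to 3000 UMIs. Timp2 was seen in 74.8% of A cells and 88.4% of B cells, and Adamts1 in 18.8% and 0.725%.

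The sequences before the 3 members that were apart are shown to compare their start regions. Capitals mark the GC box, TATAAA and the ETS core, on either strand. Adamts1 lies on the minus strand, at chr16:85803114-85803363, Timp3 on the plus strand at chr10:86300162-86300411, and Timp1 on the plus strand at chrX:20869916-20870165.
Adamts1: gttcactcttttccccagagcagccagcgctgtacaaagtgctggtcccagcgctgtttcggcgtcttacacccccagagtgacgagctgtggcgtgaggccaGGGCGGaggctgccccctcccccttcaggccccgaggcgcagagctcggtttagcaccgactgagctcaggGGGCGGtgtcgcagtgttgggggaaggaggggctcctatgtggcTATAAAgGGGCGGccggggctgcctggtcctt
Timp3: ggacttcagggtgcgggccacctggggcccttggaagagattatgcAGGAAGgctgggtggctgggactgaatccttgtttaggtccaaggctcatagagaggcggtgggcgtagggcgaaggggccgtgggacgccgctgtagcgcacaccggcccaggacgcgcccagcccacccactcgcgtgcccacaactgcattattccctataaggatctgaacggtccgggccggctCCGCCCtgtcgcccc
Timp1: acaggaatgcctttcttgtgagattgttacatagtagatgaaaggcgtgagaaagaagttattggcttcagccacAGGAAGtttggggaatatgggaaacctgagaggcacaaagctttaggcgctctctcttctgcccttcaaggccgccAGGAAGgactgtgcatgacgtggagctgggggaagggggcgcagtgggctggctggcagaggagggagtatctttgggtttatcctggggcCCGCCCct
Adamts1, alone of these 3, had TATAAA, 32 bases before the start, and it had 3 GC boxes and no ETS core. Timp3 had 1 GC box and 1 ETS core, and Timp1 had 1 GC box and 2 ETS cores. Timp2, which was not apart, had 1 GC box and none of the 3 other motifs.

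Mitochondrial share differed between the groups, so levels were also read within ranges of it, a choice made after seeing the data. In cells with 2 to 3% mitochondrial UMIs, of which 2663 were A cells and 3253 B cells, Adamts1 had 78.8 and 4.17 CPM, Timp1 35.35 and 92.5 CPM, and Timp2 487 and 804 CPM. The Adamts1 and Timp1 differences stayed past 2-fold there, at 18.9-fold and 2.62-fold. Timp3 did not: it had 172 CPM in A cells and 105 CPM in B cells, 1.64-fold higher in A cells. The Timp3 level was higher at higher mitochondrial share, with 80.55 to 142 CPM over the lowest 3 ranges in B cells and 172 to 365 CPM over 4 ranges in A cells, where the lowest level lay in the 2 to 3% range, and its excess in A cells was 2.41-fold under 2% and 1.52-fold at 3 to 5%. Timp1 went the other way within A cells, from 50.5 CPM under 2% to 28.4 CPM at 3 to 5%, so that its excess in B cells was 1.83-fold, under the 2-fold limit, in cells under 2% (222 A cells and 5484 B cells) and 3.33-fold at 3 to 5%. The excess of Adamts1 in A cells was 36.4-fold under 2% and 6.29-fold at 3 to 5%, where 183 B cells gave 12 UMIs. Plat was 1.03-fold higher in B cells under 2%, 1.40-fold at 2 to 3% and 1.44-fold at 3 to 5%. For Plaur these folds were 1.20, 1.34 and 1.44. The range of 5 to 15% held 16 B cells and was not read for B cells.

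**Figure D4:**
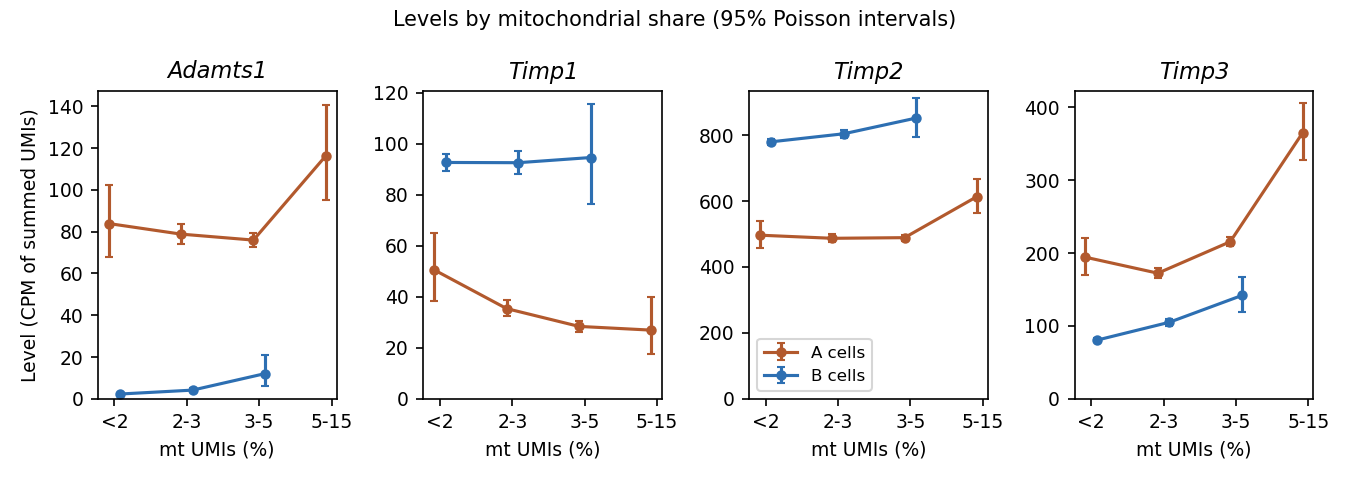
Level of Adamts1, Timp1, Timp2 and Timp3 (CPM of summed UMIs, axes from 0) in A cells (brown) and B cells (blue) by the cell's share of mitochondrial UMIs, with 95% Poisson intervals. Timp3 rises over the ranges in B cells and is highest in A cells with over 5%, and the 16 B cells with over 5% are left out.

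Cells of 1 group differed in state, and the members were read in 4 such states. A state needed at least 2 UMIs of its genes and 3 times those of the opposite state. Within A cells, 1142 cells had mainly UMIs of the epithelial-state genes S100g, Epcam and Tm4sf20, and 2478 cells mainly those of Tnc, Acta2 and Ptchd4, called contractile-state here. Adamts1 was again the member that differed: it had 101.5 CPM (96.3 to 107) in contractile-state cells and 35.6 CPM (30.8 to 40.9) in epithelial-state cells, 2.85-fold apart. It was the only 1 of 7 members past 2-fold, where 4.37% of 8691 genes were, 0.84% with the higher level in contractile-state and 3.53% in epithelial-state cells. Timp1 was also higher in contractile-state cells, with 35.2 against 23.6 CPM. Timp3 had the opposite order, with 200.1 CPM in contractile-state and 255 CPM in epithelial-state cells, and so had Plaur, with 139 and 174 CPM. The median mitochondrial share was 3.10% in contractile-state and 3.55% in epithelial-state cells. Its part in the Timp3 difference was not tested. Even the epithelial-state cells held more Adamts1 than either state of B cells.

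Within B cells, 541 cells had mainly UMIs of Krt14 and Sprr1a and 4714 mainly those of Areg, Btc and Cftr. None of the 6 members at 10 CPM was past 2-fold between these states, and of 8228 genes 1.91% were, 1.63% higher in the Krt14/Sprr1a cells and 0.28% in the others. Timp3 had 129 CPM (118 to 142) in the Krt14/Sprr1a cells and 74.9 CPM (71.8 to 78.2) in the Areg/Cftr cells, 1.73-fold apart. Timp2 had 1009.7 and 760.4 CPM in the same order. Timp1 had 92.5 and 91.0 CPM, with overlapping intervals. Adamts1, under the minimum in both states, had 5.80 and 2.57 CPM in the same order, from 20 and 73 UMIs, 2.26-fold apart.

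**Figure D5:**
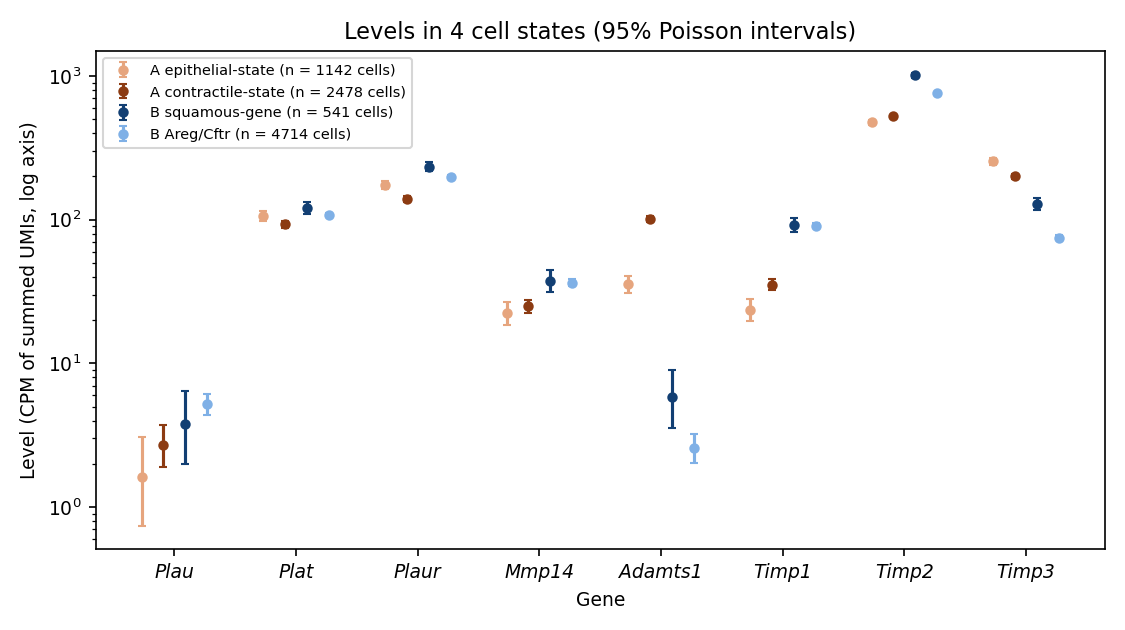
Level of 8 genes (CPM of summed UMIs, log axis) in 2 states of A cells and 2 states of B cells, with 95% Poisson intervals. Adamts1 is 2.85-fold higher in contractile-state than in epithelial-state A cells, and low in both states of B cells.

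The members were also read in mitotic and early-response cells. Cells thinned to 3000 UMIs were ranked by 10 mitosis genes, and the top 10% were compared with the lowest 10% in each group (740 and 740 A cells, 882 and 882 B cells). None of the members was past 2-fold in A or B cells, where 5.29% and 3.9% of genes were. Higher in mitotic cells were 2.54% of genes in A and 2.2% in B cells, and lower 2.75% and 1.7%. Plat was lower in mitotic cells, with 59.9 against 110.4 CPM in A cells and 99.02 against 138.7 CPM in B cells. Timp3 had 194 against 277 CPM in A cells, and 87.3 against 97.1 CPM in B cells, where the interval of the log2 difference (-0.42 to 0.11) spans 0. Plaur was also lower in mitotic A cells, with 116 against 174 CPM (interval of the log2 difference -0.82 to -0.35), and had 192 against 182 CPM in B cells, with an interval that spans 0. Timp1 and Mmp14 were higher in mitotic A cells, Timp1 with 29.3 against 17.6 CPM, 1.67-fold (interval of the log2 difference 0.14 to 1.35), and Mmp14 with 32.4 against 22.1 CPM, 1.47-fold (0.01 to 1.11). In B cells the intervals of both spanned 0. In the 5% of cells with the most UMIs of 8 immediate-early genes, none of the members was past 2-fold either, against 1.23% of genes in A cells (0.73% higher and 0.498% lower) and 0.687% in B cells (0.245% higher and 0.442% lower). In A cells this top group began at 2 UMIs, with ties broken at random. Plat had 149.5 CPM in the 370 such A cells and 83.7 CPM in the rest, 1.79-fold apart, and Adamts1 117 and 79.2 CPM. In B cells Plat had 127 and 114 CPM, with an interval of the log2 difference from -0.08 to 0.38. Whether A and B cells differ in this was not tested.

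The members were not co-expressed cell by cell beyond a weak degree. Over 28 pairs of the 8 detected members, Pearson's r of log2(UMIs + 1), thinned to 3000 UMIs, ran from -0.03 to 0.06 in 7406 A cells and from -0.03 to 0.03 in 8827 B cells. None of the pairs reached 0.1 in either group. An r of that size was rare here for Plat and Plaur with any gene. Over 3512 genes at 50 CPM or more in A cells, the 99th percentile of r was 0.056 for Plat and 0.050 for Plaur. The highest member pair was Plat with Plaur in A cells, at 0.06. There 7.79% of cells had a UMI of both, against 6.94% from the product of the 2 shares. In B cells the same pair had 11.9% against 11.8%. Timp1 with Timp3 was lowest in A cells, with 3.25% against 3.58%. Such values in sparse counts are a description and no finding. Without thinning, 7 pairs in A cells and 5 in B cells reached 0.1, with the depth of the cell common to both genes of a pair.

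Some members varied between cells more than genes of like mean. The variance of thinned counts divided by their mean was 1.51 for Timp3 in A cells, where the median was 1.04 over 457 genes of like mean, above 97.8% of them. It was 1.37 for Adamts1 (median 1.03) and 1.34 for Plat (median 1.03) in A cells, above 99.3% and 98.8% of such genes. In B cells Timp3 again stood high, at 1.22 against 1.02, whereas Timp1 had 1.03 against 1.02. Likeness was read for members with at least 50 CPM in a group, against other genes at that level: Plat, Plaur, Timp2 and Timp3 in both groups, Adamts1 in A cells and Timp1 in B cells. Of these, an r of 0.15 was passed for Timp3 in A cells alone, with Gm5886 (0.20) and Malat1 (0.18), a nuclear RNA, over 7406 cells. On the negative side, Ptma and Npm1 had the lowest r with Timp3 there, at -0.16 and -0.15. For Adamts1 the highest was Tnc, at 0.11, a gene that also defines the contractile state.

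The wider set of matrix-proteolysis genes was read from 7 lists of 101 genes in all. Of these 41 reached 10 CPM, 7 were apart with the higher level in B cells and 11 in A cells, members included, and 11 had 0 UMIs in both groups. That is 18 of 41 apart, beside 17.5% of all genes. Some of the 18 reached 10 CPM only in the group where they were higher, so the count is not read against that share. The median log2 ratio over the 41 was 0.11, against -0.17 over all genes. Centred on that shift, 8 were higher in B cells and 10 in A cells: Timp3 was no longer apart and Ctsl, a lysosomal cysteine protease, became so.

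In the plasminogen list, 3 of 8 genes at 10 CPM were higher in B cells and 1 in A cells, beside 7.2% and 10.3% of all genes. Not all of these reached 10 CPM in both groups (Serpini1 did so in A cells alone). The counts are therefore not read against those shares. Among the genes higher in B cells were S100a10 and Anxa2, whose proteins together form a plasminogen-binding complex at the cell surface. S100a10 had 606 CPM in A cells and 2293 CPM in B cells, 3.78-fold higher, and Anxa2 had 584 and 1283 CPM, 2.20-fold higher. Serpini1, the gene of neuroserpin, an inhibitor of tissue-type plasminogen activator, was higher in A cells, with 14.5 and 6.16 CPM. Under the minimum, Serpinb2 of the same list had the opposite order, with 0.223 CPM in A cells and 9.47 CPM in B cells. Plgrkt, a plasminogen receptor, had 53.3 and 81.3 CPM and was not apart.

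The MMP genes that were apart, Mmp13 and Mmp3, lay on opposite sides. Of 23 MMP genes 3 reached 10 CPM: beside Mmp14 these were Mmp13, a collagenase, with 3.203 CPM in A cells and 52.9 CPM (50.98 to 54.9) in B cells, and Mmp3, stromelysin, with 16.9 CPM (15.6 to 18.2) and 0.701 CPM. Mmp13 was 16.5-fold higher in B cells and Mmp3 24.1-fold higher in A cells. In the lower group Mmp3 stood at 4.15% of its higher level, Mmp13 at 6.05% and Adamts9 (below) at 2.01%. The ranges given with Adamts1 were 2.39 to 3.96% for A genes in B cells and 2.80 to 5.06% for B genes in A cells. The part of free RNA in these remainders was not tested. Mmp28, under the minimum, had 2.78 and 2.14 CPM. Of 19 ADAMTS genes 4 reached 10 CPM and were higher in A cells, and all of these but Adamts6 reached it in A cells alone, so the count is read against no share. Adamts9 had 27.3 and 0.550 CPM, 49.7-fold apart, Adamts6 39.3 and 11.96 CPM, and Adamts10 18.9 and 6.10 CPM. Genes under the minimum lay on both sides. Adamts12, with 7.67 and 0.455 CPM, and Adamts3, with 3.50 and 1.55 CPM, were higher in A cells. Adamts15 and Adamts5 had the opposite order, with 0.273 and 5.44 CPM and 0.0993 and 2.41 CPM.

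In the 4 remaining lists the counts apart, beside 17.5% of all genes, were 2 of 5 ADAM sheddases, 3 of 7 metalloprotease inhibitors and activators (Timp1 and Timp3 among them), 2 of 4 membrane serine proteases and their inhibitors, and 1 of 10 cathepsins and cystatins. Adam12, Adam17 and Htra1 reached 10 CPM only in the group where they were higher, so the counts of their lists are not read against that share. Among the sheddases, Adam12 was higher in B cells (6.31 and 15.2 CPM) and Adam17, which releases growth factors and TNF and is inhibited by Timp3, was higher in A cells (24.4 and 9.85 CPM), while Adam10 had 81.2 and 50.9 CPM, Adam9 62.1 and 70.2 CPM and Adam15 25.1 and 18.8 CPM. Pcsk6, a proprotein convertase, was higher in A cells, with 66.5 and 28.0 CPM, whereas Furin, which activates Mmp14, had 22.0 and 24.9 CPM and Bsg, an inducer of metalloproteases, 566 and 610.4 CPM. Cd44, a hyaluronan receptor that can dock proteases, had 103 and 118 CPM. Tmprss2, a membrane serine protease, was higher in A cells, with 60.2 and 21.5 CPM, and Htra1, a secreted serine protease, in B cells, with 6.06 and 19.8 CPM, while Spint2, an inhibitor of such proteases, had 239 and 178 CPM. The cathepsin gene that was apart was Ctsa, with 86.6 and 36.4 CPM, while Cst3 had 440.3 and 297 CPM, Cstb 334 and 467 CPM and Ctsl 262 and 511 CPM.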

How the data were processed

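The data were 1 library of the 3′ v4 droplet protocol, per the labels' protocols, as deposited by the authors: UMI counts per gene and barcode, not normalized. Reads were processed with Cell Ranger 8.0.1 on GRCm39, per the submitters' processing notes; annotation and barcode-calling settings are not given in the sources used here. The matrix held 22178 distinct barcodes, with 500 to 23576 UMIs each.

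The filter asked for 2000 UMIs and 1000 genes or more in a barcode, and for a mitochondrial share of 15% or less. Levels are CPM of summed counts. Cells that met neither rule were left out of A and B cells: 464 had at least 2 UMIs of each list but failed the ratio of 3, and 4145 were the rest. Scrublet (scanpy 1.11.5, expected rate 0.08) marked 841 kept cells, 71.1% of those 464, 2.06% of A cells and 2.60% of B cells; these were removed only in an alternative. Thinning to 3000 UMIs left out 410 A cells and 109 B cells. Members, lists, states and groups were chosen with earlier results of these data known. By rule the text names all members, the genes that define groups and states, list genes that were apart, the 3 non-members of each list and the 2 genes of each marker list with the most UMIs (of the endocrine list, Ins2 and Ppy, which had under 0.1 CPM), and genes most like a member (r of at least 0.15). Any other gene named was picked with its values in view. One gene that the rule would name is not reported here. Alternatives were a stricter and a looser cell filter, a stricter group rule, removal of marked doublets, thinning, the mean of per-cell CPM, centring and other minimums; those by mitochondrial share, and the remainders under the stricter group rule, were chosen after seeing the data.

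Overlapping genes were taken from GENCODE M21. Versions were numpy 2.4.6, scipy 1.17.1 and pandas 2.3.3.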

Additional observations from a re-analysis of the deposited data

Results flagged for a closer look

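The 817 barcodes that failed the cell filter, which no comparison uses, held 1076 UMIs of the members, above the 3 UMIs that a count of 0 allows. They had a median of 1087 UMIs and a median mitochondrial share of 11.1%. Adamts1 stood there at 117 CPM (interval 96.2 to 141), Timp3 at 213 CPM and Timp1 at 22.3 CPM, and Mmp7 again had 0 UMIs.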

How the results depend on the processing

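No paired analysis was possible because there was 1 library. The counts of members apart (1 higher in B cells, 2 in A cells) were recomputed under 10 alternatives. The count for A cells fell to 1 when ratios were centred on the median of all genes and in cells with 2 to 3% mitochondrial UMIs, a choice made after seeing the data; Timp3 was the gene lost in both of these, with log2 ratios of -0.99 and -0.71. The cause was not tested. The Adamts1 log2 ratio ran from -5.08 (marked doublets removed) to -4.24, and that of Timp1 from 1.39 to 1.76. Within other ranges of mitochondrial share, also chosen after seeing the data, Timp1 had 0.87 under 2%, where it was no longer past 2-fold, and Adamts1 had -5.19 under 2% and -2.65 at 3 to 5%. Timp3 had -1.27 under 2% and -0.60 at 3 to 5%. Of all genes, 255 were higher in B cells and 292 in A cells with a minimum of 50 CPM, and 2492 and 3334 with no minimum, against 633 and 903. Without thinning, 7 member pairs in A cells and 5 in B cells had an r of at least 0.1, against 0 and 0, and 0 under the 6 other alternatives. Another minimum cannot change a member's ratio; under the other alternatives 18 ratios moved out of their counting interval, and 0 of the called ones changed sign. Counts were low for Plau (102 UMIs in A and 247 in B cells) and for Adamts1 in B cells (168 UMIs), and 0 for Mmp7. No alternative measures the spread between cultures.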

Other observations

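Cells outside the 2 groups are given as values only. The 4145 kept cells that met neither rule and had under 2 UMIs of at least 1 list (median 4166 UMIs) had 47.0 CPM of Adamts1, 47.45 CPM of Timp1, 584.5 CPM of Timp2 and 143 CPM of Timp3, each between the levels of A and B cells. The 464 cells that had at least 2 UMIs of each list but failed the ratio between them (median 8490 UMIs) had 34.4, 63.2, 646 and 142 CPM in the same order.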
